A study of Mus musculus with 4 samples.

Results

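The genes described here encode chaperones and folding enzymes of the endoplasmic reticulum (ER), components of ER-associated degradation (ERAD), sensors of the unfolded protein response (UPR) and subunits of the SEC61 channel. The 35 members were chosen by symbol, and each was found once in the count table of 55812 features through its Ensembl identifier (GRCm38 annotation). All 35 passed the filter on low counts and were among the 14701 genes tested. RNA was sequenced from primary Leydig cells, the testosterone-producing cells of the testis interstitium, labelled as 6-month-old mouse. Cells received either Negative siRNA or Trps1 siRNA, a small interfering RNA against Trps1, which encodes a GATA-type repressor of transcription. There were 2 samples in each group, numbered 1 and 2, and the Negative siRNA samples are called the controls. The labels give no strain or sex. They do not tie samples to cultures or animals either. A p-value here sets a difference against the spread between samples of the same group, which may be technical. With 2 samples per group, edgeR estimates that spread for each gene with help from the other genes tested.

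Proteins that enter the secretory pathway are threaded through SEC61 into the ER, where chaperones hold them and enzymes form and rearrange their disulfide bonds. Proteins that fail to fold are passed back to the cytosol by the ERAD machinery and degraded. When unfolded proteins build up, 3 membrane sensors (IRE1, encoded by Ern1, PERK, encoded by Eif2ak3, and ATF6) raise the transcription of chaperone and ERAD genes and lower protein synthesis. IRE1 acts by splicing the mRNA of Xbp1, PERK by phosphorylating a translation initiation factor, and ATF6 by being cut in the Golgi. Gene-level counts show none of these steps directly. Leydig cells hold abundant smooth ER, where part of steroid synthesis takes place.

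Trps1 siRNA left most of these genes near their control level. Of 35 members, 4 passed the test (edgeR's quasi-likelihood test, Benjamini-Hochberg adjusted p under 0.05 over all genes tested), close to the 11.2% of all tested genes that did. The member that rose was Ern1, 1 of 35 beside 5.24% of all genes called higher. The 3 members that fell were Dnajc10, Sdf2l1 and Hsp90b1, all of the luminal HSP70 and HSP90 system, beside 6.00% of all genes called lower. Without sample 2 of Negative siRNA, or without sample 2 of Trps1 siRNA, Dnajc10 was the 1 member called lower. The groups did not overlap in 23 of 35 members, of which 9 were higher and 14 lower with Trps1 siRNA, and they did not overlap in 52.2% of all tested genes. The median log2 fold change (Trps1 siRNA minus Negative siRNA) was -0.03 for the members and 0.002 for all genes tested, and the median of its absolute value was 0.055 and 0.140. The members were also measured more precisely, with a median standard error of 0.060 against 0.110 for all genes tested. The part of precision in the smaller absolute changes was not tested. The members drew 0.809% and 0.803% of all counted reads in the controls and 0.793% and 0.787% after Trps1 siRNA.

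**Figure D1:**
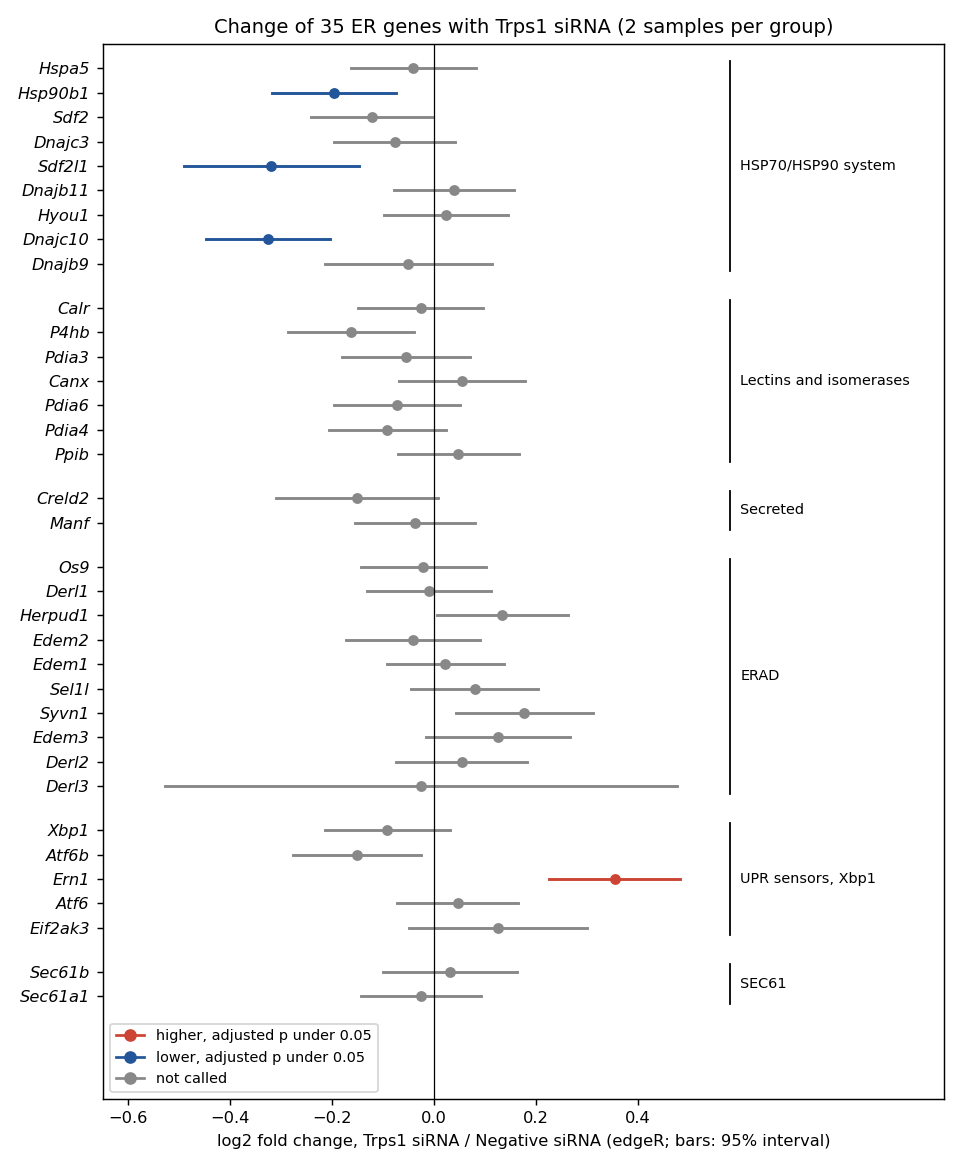
Log2 fold change of each member (point) with its 95% interval from edgeR (bar), grouped by role and ordered by level within a role, with 2 samples per group. Ern1 lies at 0.35 to the right, Dnajc10, Sdf2l1 and Hsp90b1 lie at -0.33, -0.32 and -0.20 to the left, and the interval of Derl3 is the widest of the members.

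The libraries held 17844125 to 25852898 counted reads. Trps1 itself had 38.1 and 42.2 CPM (counts per 1000000, on TMM-scaled library sizes) with Negative siRNA and 23.5 and 30.1 CPM after Trps1 siRNA, and its log2 fold change was -0.58 ± 0.10 (standard error; edgeR adjusted p = 0.000351). Leydig markers were abundant, with a summed level of 4161 and 4439 CPM over 9 genes with Negative siRNA and 6179 and 6615 CPM after Trps1 siRNA. Of these, 7 of 9 rose, beside 5.24% of all genes called higher. Macrophage markers were present too. Their 19 genes summed to 3567 and 3532 CPM in the controls and to 3029 and 2413 CPM after Trps1 siRNA, and none was at 0 counts. Of the 19, 11 fell, beside 6.00% of all genes called lower. The part of the macrophage difference in the values below was not tested, and in bulk RNA fewer cells of a type and less RNA per cell cannot be told apart. Endothelial markers summed to 35.6 to 43.2 CPM, germ cell markers to 1.17 to 2.39 CPM and markers of B and plasma cells to 0.995 to 1.90 CPM. Sertoli markers summed to 40.2 and 41.8 CPM in the controls and 48.1 and 47.8 CPM after Trps1 siRNA. Of the 4 Sertoli markers tested, Gata1 rose by 0.41 on the log2 scale (edgeR adjusted p = 0.0154), while DESeq2 called 0. Fshr and Tnp1 were at 0 counts in every library. The 6 smooth muscle markers summed to 140 and 147 CPM in the controls and 123 and 122 CPM after Trps1 siRNA. Nearly all of this came from Acta2, Myl9 and Mylk, with control means of 24.9, 60.0 and 57.3 CPM. Acta2 and Myl9 fell, both by 0.69 on the log2 scale, while Mylk rose by 0.26 (edgeR adjusted p = 6.90e-05, 1.14e-06 and 0.0187). Myh11, the last of the 4 tested, had a control mean of 0.950 CPM and was not called. Tagln and Cnn1 had at most 5 and 3 reads in any library and were not tested.

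Many genes of this group carry the ER stress response element (ERSE) in their promoter, the site through which ATF6 and the spliced form of XBP1 raise transcription together with the factor NF-Y. The sequences are shown because the element ties chaperone genes to the sensors described further on. The element was searched as CCAAT and CCACG with 9 bases between them, on both strands, in RefSeq promoter windows of GRCm38.p6 that run from 250 bases before to 50 bases after a gene's start. Of the 35 members, 30 had a window. ERSE was found in 9 of these 30, or 30.0%, against 39 of 32851 windows of all genes, or 0.119%. Here and below, shares of members count genes, while shares of all windows count windows and include those of the members. The 39 windows belonged to 37 genes. The whole window of Hspa5, the gene of the chaperone BiP, is printed first (chr2:34771840-34772139, plus strand), with the fixed bases of the element in capitals.
Hspa5: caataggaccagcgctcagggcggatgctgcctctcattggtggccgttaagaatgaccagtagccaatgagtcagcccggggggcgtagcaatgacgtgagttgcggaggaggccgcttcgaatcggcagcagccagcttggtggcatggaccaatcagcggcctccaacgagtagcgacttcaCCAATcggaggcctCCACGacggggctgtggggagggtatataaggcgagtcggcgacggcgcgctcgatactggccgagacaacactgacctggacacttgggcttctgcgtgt

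The other 8 promoters with ERSE are shown as the element with 10 bases on each side, on the gene's own strand, 5′ to 3′. Capitals again mark the fixed bases, which read CGTGG and ATTGG where the element lies on the opposite strand.
Hsp90b1, element from 212 bases before the start (chr10:86705628-86705666, minus strand): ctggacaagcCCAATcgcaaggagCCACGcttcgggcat
Hsp90b1, element from 107 bases before the start (chr10:86705523-86705561, minus strand): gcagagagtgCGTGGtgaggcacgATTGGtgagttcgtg
Calr (chr8:84847065-84847103, minus strand): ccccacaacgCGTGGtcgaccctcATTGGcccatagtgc
Canx (chr11:50325790-50325828, minus strand): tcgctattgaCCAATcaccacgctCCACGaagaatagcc
Pdia6 (chr12:17266481-17266519, plus strand): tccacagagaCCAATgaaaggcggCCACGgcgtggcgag
Dnajc3 (chr14:118937817-118937855, plus strand): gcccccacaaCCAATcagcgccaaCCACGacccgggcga
Creld2 (chr15:88819510-88819548, plus strand): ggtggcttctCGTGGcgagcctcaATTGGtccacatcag
Syvn1 (chr19:6046522-6046560, plus strand): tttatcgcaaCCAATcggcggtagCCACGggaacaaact
Derl3 (chr10:75893232-75893270, plus strand): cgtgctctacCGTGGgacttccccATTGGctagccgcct

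ERSE-II, a shorter form of the element (ATTGG, any 1 base, then CCACG), was found in Herpud1 and Dnajb11, against 12 of all 32851 windows. These sites are shown in the same way. The promoter of Herpud1 also held TGATGCAA on the opposite strand, an element of ATF4 and C/EBP factors that was found in 0.895% of all windows and in no other member.
Herpud1, ERSE-II (chr8:94386367-94386397, plus strand): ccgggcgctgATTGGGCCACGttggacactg
Dnajb11, ERSE-II (chr16:22857842-22857872, plus strand): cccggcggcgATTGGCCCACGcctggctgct
Herpud1, element of ATF4 and C/EBP factors (chr8:94386307-94386334, plus strand): ccacggcgggTTGCATCAgcccgcaccc

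The core of the UPR element, TGACGTGG, was in 0.676% of all windows and in no member. GATA motifs, the kind of site that Trps1 binds (AGATAA, its form with a last G, AGATAG, then TGATAA and its form with a last G, TGATAG, on either strand), were in 4 of 30 members, Edem3, Herpud1, Derl2 and Dnajc3, and in 29.8% of all windows. A match is a run of letters and not a measured binding site. Only exact matches were sought, so a promoter may hold variants of an element that were not counted.

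**Figure D2:**
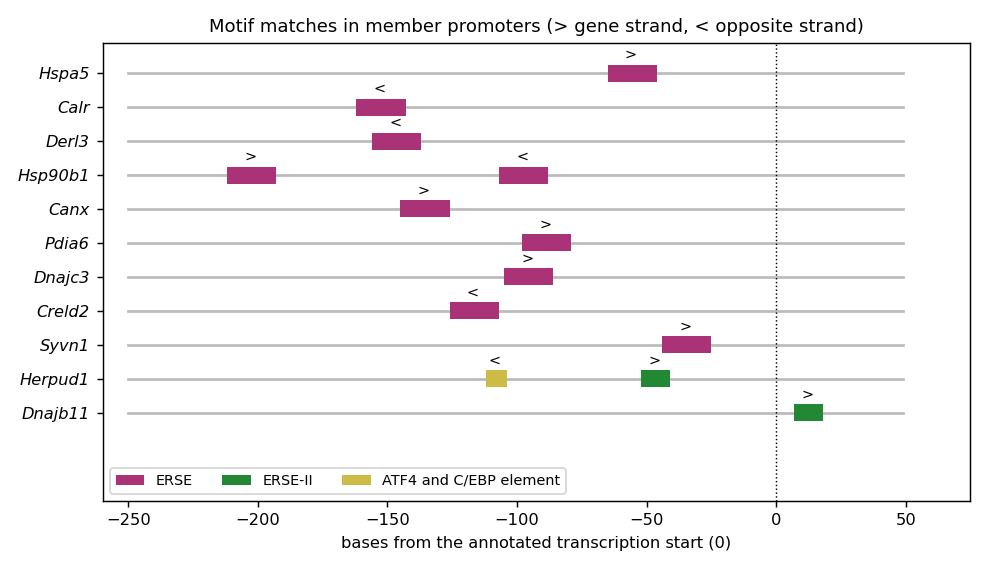
Position of each match in the promoter windows (grey lines) of the 11 members with ERSE or ERSE-II, GATA motifs left out, in bases from the annotated start at 0, with ERSE, ERSE-II and the element of ATF4 and C/EBP factors in different colours and the strand marked above each box. Hsp90b1 is the only member drawn here with an exact match to ERSE at 2 places, and the ERSE-II of Dnajb11 lies after the start.

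In all, 18 genes with ERSE were tested, of which 1 rose and 1 fell, beside the 11.2% of all tested genes that were called. Of the 9 members with ERSE, Hsp90b1 was called lower and 8 did not pass the test, with log2 fold changes from -0.20 to 0.18. Outside the members, 9 further genes with ERSE were tested, and Acacb, which encodes an acetyl-CoA carboxylase of mitochondria, was the single one called, with a rise of 0.70 ± 0.08 on the log2 scale (edgeR adjusted p = 6.07e-07). Of 9 tested genes with ERSE-II in all, edgeR called 0, with 1 (Herpud1) at an unadjusted p below 0.05.

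Levels of different genes are compared here as CPM per kb of exon sequence, as means of the Negative siRNA samples. The exon length counts each base that lies in an exon of any annotated transcript. It can exceed the length of the transcripts present, so the order of genes depends in part on the annotation. Calr, the calcium-binding lectin chaperone calreticulin, stood at 327, followed by the disulfide isomerases P4hb at 299 and Pdia3 at 258, Hspa5 at 229 and the ERAD lectin Os9 at 149. The group means of P4hb and Pdia3 in Trps1 siRNA were 267 and 249, so their order was the same in both groups. At the lower end, Derl2 stood at 10.3, the sensor Eif2ak3 at 5.26 and Derl3 at 1.81. Derl2 had 82.6 CPM over 8049 bases, while Sec61b had 83.8 CPM over 1271 bases and stood at 65.9. Among the sensors, Atf6b had 36.6, Ern1 13.8, Atf6 12.5 and Eif2ak3 5.26, so that Ern1 and Atf6 were neighbours. With Trps1 siRNA, Ern1 stood at 17.6 and Atf6 at 12.9.

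**Figure D3:**
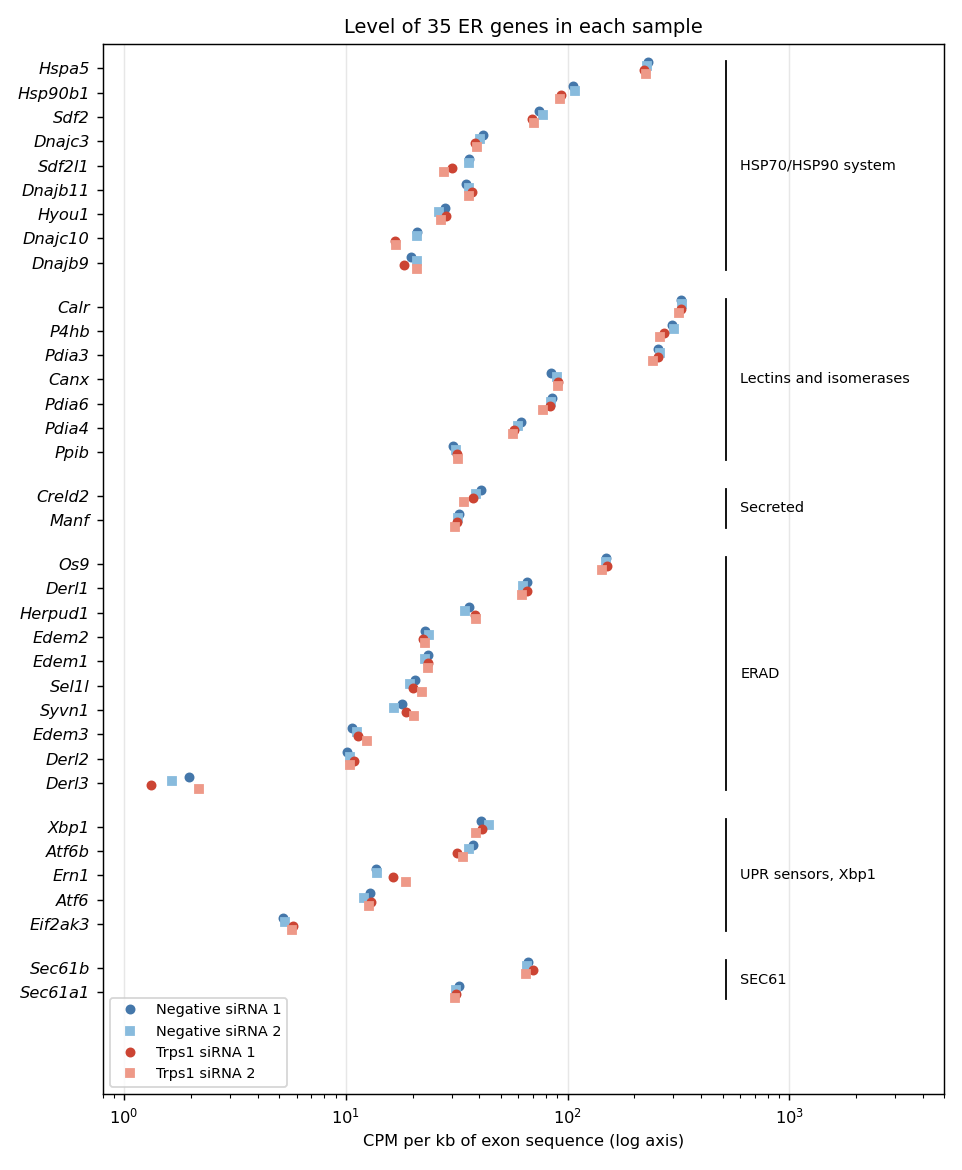
Level of each member in each of the 4 samples, as CPM per kb of exon sequence on a log axis, with circles for sample 1 and squares for sample 2 of each group. Levels ran from Derl3 near 1.81 to Calr near 327, and the spread between genes was far wider than that between samples of 1 gene.

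Among the chaperones of the HSP70 and HSP90 system, 3 of 9 fell and 6 did not pass the test, beside 6.00% of all genes called lower. Dnajc10 encodes ERdj5, a J-domain protein with thioredoxin domains that reduces disulfide bonds of ERAD substrates (chromosome 2, 80315466 to 80354043, plus strand). It had 105.3 and 104.8 CPM in the controls and 83.7 and 83.9 CPM after Trps1 siRNA. Samples within a group were nearly equal and the groups lay far apart. The fitted log2 fold change was -0.33 ± 0.06 (edgeR adjusted p = 0.000435), which is 0.798 of the control level, and the call held under each of the 12 alternative analyses. The authors' deposited table lists Dnajc10 with a log2 fold change of -0.33 and an adjusted p of 0.00336.

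Sdf2l1 (chromosome 16, 17130138 to 17132383, minus strand) encodes an ER protein that works with HSP40 cochaperones to keep BiP clients from aggregating. It had 39.9 and 39.9 CPM in the controls and 33.5 and 30.6 CPM after Trps1 siRNA. Both Trps1 siRNA samples lay below the controls, with sample 2 the lower. The log2 fold change was -0.32 ± 0.08 (edgeR adjusted p = 0.0122), 0.802 of the control. This call was lost without sample 2 of Negative siRNA (adjusted p = 0.0538), without sample 2 of Trps1 siRNA (adjusted p = 0.146) and with DESeq2 (adjusted p = 0.0588). Its paralogue Sdf2 had 113 and 117 CPM in the controls and 105 and 107 CPM after Trps1 siRNA, a log2 fold change of -0.12 ± 0.06 that did not pass the test (edgeR adjusted p = 0.189).

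Hsp90b1 (chromosome 10, 86690209 to 86705509, minus strand) encodes GRP94, the HSP90 of the ER lumen, which folds integrins and Toll-like receptors. Its levels were 427 and 434 CPM in the controls and 378 and 373 CPM after Trps1 siRNA, again with the groups apart. The log2 fold change was -0.20 ± 0.06 (edgeR adjusted p = 0.0290), 0.873 of the control. The call was lost without sample 1 or sample 2 of Negative siRNA (adjusted p = 0.105 and 0.177), without sample 2 of Trps1 siRNA (adjusted p = 0.0974), and without robust estimation of the dispersion (adjusted p = 0.0527). Hsp90b1 shares exon sequence with annotated genes on both strands and its count is uncertain for that reason.

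Hspa5, the target gene read most often as a sign of ER stress, had 973 and 962 CPM in the controls and 930 and 951 CPM after Trps1 siRNA. The Trps1 siRNA samples lay slightly below the controls, and the log2 fold change of -0.04 ± 0.06 did not pass the test (edgeR adjusted p = 0.742). The 95% interval of the Hspa5 fold ran from 0.893 to 1.06. Hyou1, a large HSP70 relative that exchanges nucleotide on BiP, had 202 and 191 CPM and then 206 and 194 CPM, with overlapping groups. Of the J-domain partners of BiP, Dnajb9 had a log2 fold change of -0.05, Dnajb11 one of 0.04 and Dnajc3, which also inhibits PERK, one of -0.08, and none of the 3 passed the test.

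**Figure D4:**
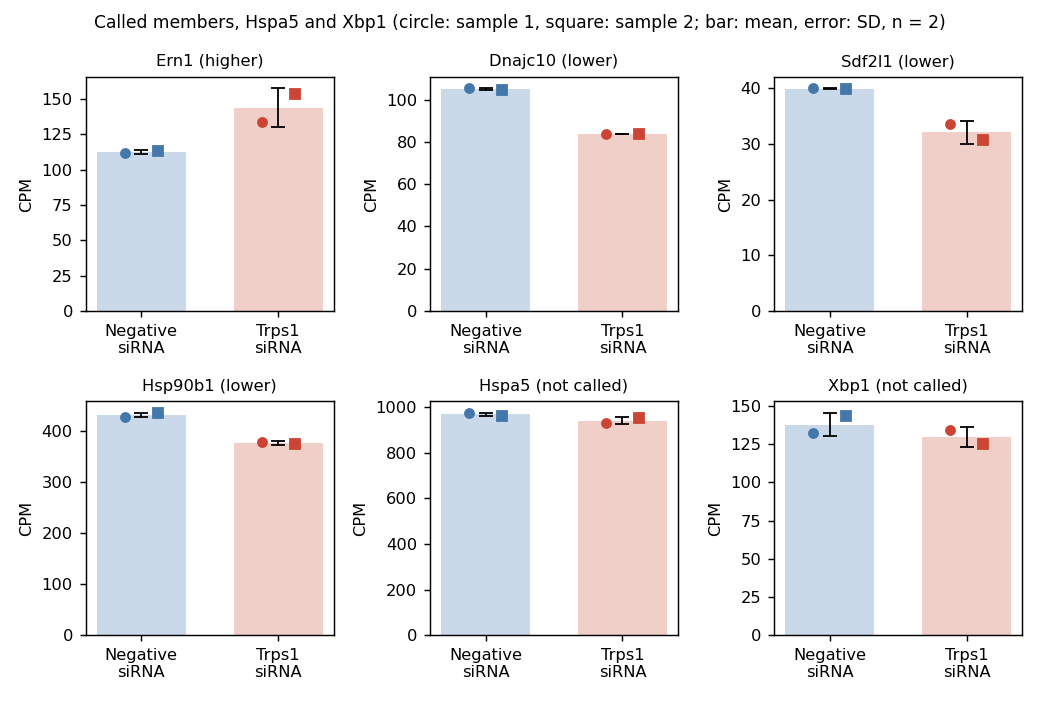
CPM of the 4 called members and of Hspa5 and Xbp1 in each sample (circles for sample 1, squares for sample 2), with the group mean as a bar from 0 and the SD as the error bar (n = 2 per group). Ern1 lies above its controls in both Trps1 siRNA samples, Dnajc10, Sdf2l1 and Hsp90b1 lie below, and Xbp1 overlaps between groups.

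Of the 7 lectin chaperones and isomerases, 0 were called by edgeR, DESeq2 or limma voom, and 1, P4hb, had an unadjusted p below 0.05 in edgeR. The groups did not overlap in any of the 7, with 5 lower and 2 higher after Trps1 siRNA, beside 52.2% of all tested genes without overlap. Some gaps were very small, as for Pdia3, where the nearest samples had 802.7 CPM (Negative siRNA) and 802.4 CPM (Trps1 siRNA). P4hb, the disulfide isomerase that is also a subunit of collagen prolyl hydroxylase, had 849 and 862 CPM in the controls and 779 and 748 CPM after Trps1 siRNA, a log2 fold change of -0.16 ± 0.06 (edgeR adjusted p = 0.0823). Without sample 1 of Trps1 siRNA its adjusted p was 0.0411. Calr had 939 and 943 CPM and then 934 and 914 CPM, a log2 fold change of -0.03 ± 0.06. Canx, the membrane-bound relative of Calr, had 396 and 422 CPM and then 424 and 426 CPM, with a log2 fold change of 0.055. Pdia3, the isomerase that works with both lectins on glycoproteins, had 803 and 819 CPM and then 802 and 759 CPM. The log2 fold change was -0.06 for Pdia3, -0.09 for Pdia4 and -0.07 for Pdia6, the last 2 being further isomerases, and 0.05 for Ppib, the cyclophilin that isomerises proline bonds in procollagen.

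Both secreted proteins of the ER stress response failed to reach a call in edgeR, DESeq2 and limma voom, and neither had an unadjusted p below 0.05. Creld2 had 55.9 and 52.7 CPM in the controls and 51.4 and 46.5 CPM after Trps1 siRNA (log2 fold change -0.15 ± 0.08, edgeR adjusted p = 0.240). Manf, a growth factor that is retained in the ER by BiP, had 114 and 113 CPM and then 112 and 109 CPM. In each of these genes the Trps1 siRNA samples lay below the controls, beside 52.2% of all tested genes without overlap. For Manf the nearest samples had 112.6 CPM (Negative siRNA) and 112.4 CPM (Trps1 siRNA).

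Of the 10 ERAD members, 0 were called by edgeR, DESeq2 or limma voom, and Syvn1 and Herpud1 had an unadjusted p below 0.05 in edgeR. Syvn1, the ubiquitin ligase HRD1, had 87.3 and 80.6 CPM in the controls and 90.5 and 98.9 CPM after Trps1 siRNA. The groups did not overlap and sample 2 of Trps1 siRNA was the highest. The fitted log2 fold change was 0.18 ± 0.07 (edgeR adjusted p = 0.0843), and without sample 1 of Trps1 siRNA the adjusted p was 0.0284. Sel1l, the adaptor that holds HRD1 in its complex, had 175 and 166 CPM and then 172 and 189 CPM, with overlapping groups. Herpud1, a small membrane protein that recruits the complex and one of the promoters with ERSE-II, had 83.6 and 80.1 CPM and then 88.8 and 90.6 CPM, a log2 fold change of 0.13 ± 0.06 (edgeR adjusted p = 0.185).

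The lectins and mannosidase-like proteins that pick out misfolded glycoproteins lay close to their controls. The log2 fold change was 0.02 for Edem1, -0.04 for Edem2, 0.13 for Edem3 and -0.02 for Os9. Of the derlins, membrane proteins of the retrotranslocation channel, Derl1 had a log2 fold change of -0.01 and Derl2 one of 0.05. Derl3, which is most abundant in secretory cells such as plasma cells, was read 47 to 94 times per library and had 3.93 and 3.28 CPM and then 2.63 and 4.32 CPM. At this depth the 95% interval of the Derl3 fold ran from 0.694 to 1.39, the widest of the members.

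Ern1 was the 1 sensor gene that passed the test (chromosome 11, 106394650 to 106487852, minus strand). It had 112 and 113 CPM in the controls and 134 and 153 CPM after Trps1 siRNA, from 2242, 2904, 2390 and 3334 reads. Both Trps1 siRNA samples lay above the controls, sample 2 further than sample 1. The log2 fold change was 0.35 ± 0.06 (edgeR adjusted p = 0.000354), a 1.28-fold rise with a 95% interval from 1.17 to 1.40. The call held under each of the 12 alternatives, with log2 fold changes from 0.25 to 0.45. The authors' deposited table lists Ern1 with a log2 fold change of 0.35 and an adjusted p of 0.0451, and Ern1 and Dnajc10 are the 2 members among its 780 genes. Ern2, the relative of Ern1 known from gut epithelium, was at 0 counts in all 4 libraries.

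Xbp1, whose mRNA IRE1 splices, had 132 and 143 CPM in the controls and 134 and 125 CPM after Trps1 siRNA. The groups overlapped, and the log2 fold change of -0.09 ± 0.06 did not pass the test (edgeR adjusted p = 0.378). Eif2ak3, the gene of PERK, had 31.2 and 32.2 CPM and then 34.9 and 34.3 CPM, a log2 fold change of 0.12 ± 0.08 (edgeR adjusted p = 0.403). Atf6 had 119 and 112 CPM and then 120 and 118 CPM. Its relative Atf6b had 103 and 98.8 CPM and then 87.9 and 93.5 CPM, with a log2 fold change of -0.15 ± 0.06 (edgeR adjusted p = 0.119). The difference between Ern1 and the other sensors was not tested.

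Of the SEC61 channel, the pore subunit Sec61a1 had 218 and 212 CPM in the controls and 212 and 210 CPM after Trps1 siRNA, and the small subunit Sec61b had 84.5 and 83.1 CPM and then 88.7 and 82.6 CPM. Both overlapped between groups. Sec61b had a log2 fold change of 0.03 ± 0.06 (edgeR adjusted p = 0.827) and Sec61a1 one of -0.03, and neither had an unadjusted p below 0.05. Over the 31 members that were not called, folds ran from 0.893 for P4hb to 1.13 for Syvn1. Leaving aside Derl3, which was set apart after its values were seen, the 95% intervals of these folds all lay between 0.807 and 1.24.

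The rest of the pathway was read from 6 further lists with 122 genes, of which 120 were tested. Of these, 11 rose and 6 fell, 103 were not called, and the median log2 fold change of all 120 was -0.01. The called share was 14.2%, near the 11.2% of all tested genes. By list it was 42.9% for the branch from PERK to ATF4 and CHOP, 15.0% for N-glycan genes and 13.3% for oxidoreductases and cofactors. It was 7.69% for other ERAD genes, 7.69% for UPR regulators and 5.88% for translocation and signal peptidase genes. Without sample 2 of Negative siRNA 6 rose and 2 fell, while the calls over all genes went from 1652 to 1157. Without sample 2 of Trps1 siRNA 8 rose and 3 fell, and 871 of all genes were called. The list with the most calls held genes named as outputs of the branch from PERK to ATF4 and CHOP. In it 5 of 14 rose, 1 fell and 8 were not called, with a median of 0.15. The list was made by symbol, and whether PERK or another input moved these genes was not tested. Atf4, the transcription factor of this branch, had 219 and 199 CPM in the controls and 267 and 262 CPM after Trps1 siRNA, a log2 fold change of 0.34 ± 0.06 (edgeR adjusted p = 0.000369). The lipoprotein receptor Vldlr rose by 0.52, the transcription factor Atf5 by 0.29 and the mTORC1 inhibitor Ddit4 by 0.27 on the log2 scale. The calls of Atf5 and Ddit4 were lost without sample 2 and sample 1 of Negative siRNA, respectively (adjusted p = 0.0734 and 0.0960).

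The other called genes of that list, given here after their values were seen, moved in opposite directions. Ppp1r15a, the phosphatase subunit GADD34 that reverses the action of PERK, had 63.0 and 64.1 CPM and then 78.2 and 77.3 CPM, a rise of 0.29 ± 0.07 on the log2 scale (edgeR adjusted p = 0.00392). Chac1, an enzyme that degrades glutathione, had 9.0 and 9.84 CPM and then 6.61 and 5.71 CPM, and fell by 0.62 on the log2 scale (edgeR adjusted p = 0.0105). The Chac1 call was lost without sample 2 of either group (adjusted p = 0.0806 for Negative siRNA and 0.144 for Trps1 siRNA) and with DESeq2 (adjusted p = 0.0612). Ddit3, the gene of CHOP, had 18.7 and 19.7 CPM and then 21.7 and 24.4 CPM and did not pass the test (edgeR adjusted p = 0.118), and the log2 fold change was 0.02 for Trib3, -0.04 for Asns and -0.06 for Atf3.

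Of 13 tested regulators and processing factors of the UPR, Creb3l2 rose and 12 did not pass the test. Creb3l2, a transcription factor of the ATF6 type that is also cut in the Golgi, had 168 and 162 CPM in the controls and 205 and 228 CPM after Trps1 siRNA. The fitted log2 fold change was 0.40 ± 0.06 (edgeR adjusted p = 6.00e-05), and the call held under each of the 12 alternatives. Of 26 other ERAD genes, Erlin1 and Erlin2 rose, by 0.26 and 0.24 on the log2 scale, and 24 did not pass the test. Erlins form a membrane complex that directs the ERAD of IP3 receptors. Both calls were lost with DESeq2 (adjusted p = 0.130 for Erlin1 and 0.0782 for Erlin2), without sample 2 of Negative siRNA (0.302 and 0.127) and without sample 2 of Trps1 siRNA (0.123 and 0.275). That of Erlin1 was also lost without sample 1 of Trps1 siRNA (0.0966) and that of Erlin2 without sample 1 of Negative siRNA (0.0599).

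Among 30 other oxidoreductases and folding cofactors, 2 rose and 2 fell. The thioredoxin-like proteins of the ER membrane moved apart, with a log2 fold change of -0.29 ± 0.06 for Tmx1 and 0.37 ± 0.08 for Tmx3 (edgeR adjusted p = 0.00286 and 0.00454). Fkbp14, a prolyl isomerase for procollagen, rose by 0.34, and Dnajc1, a membrane-bound J-domain protein, fell by 0.20 on the log2 scale. The calls of Tmx3 and Fkbp14 were lost without sample 2 of Trps1 siRNA and sample 2 of Negative siRNA, respectively (adjusted p = 0.188 and 0.186). That of Dnajc1 was lost without sample 1 or sample 2 of Negative siRNA and without sample 2 of Trps1 siRNA (adjusted p = 0.205, 0.116 and 0.143), with DESeq2 and with library totals alone.

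In N-glycan transfer and trimming 1 of 20 rose and 2 fell. Magt1, a subunit of the oligosaccharyltransferase, had 68.7 and 73.1 CPM in the controls and 50.8 and 57.4 CPM after Trps1 siRNA, a log2 fold change of -0.39 ± 0.07 (edgeR adjusted p = 0.000730) that was called in every alternative. Rpn2, another subunit, fell by 0.24, and Ganab, the glucosidase that trims glycans before calreticulin and calnexin bind, rose by 0.24 on the log2 scale. The call of Rpn2 was lost without sample 1 or 2 of the controls or sample 2 of Trps1 siRNA (adjusted p = 0.0560, 0.0502 and 0.0633), and that of Ganab without sample 2 of Negative siRNA (adjusted p = 0.146). Of 17 translocation and signal peptidase genes, Spcs3, the signal peptidase subunit, fell by 0.27 on the log2 scale, and its call was lost without sample 2 of Negative siRNA (adjusted p = 0.0756).

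**Figure D5:**
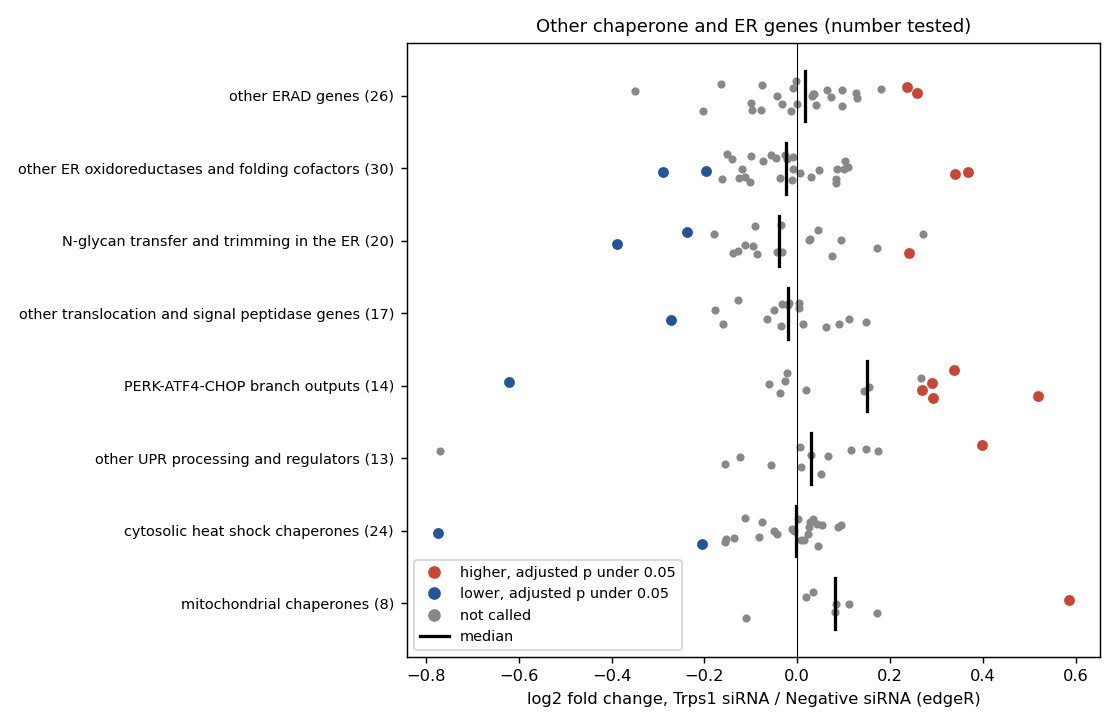
Log2 fold change of each tested gene (points) of 8 further lists, with the number tested in brackets, the list median as a black line and called genes in colour. The list named after the branch from PERK to ATF4 and CHOP has 5 genes called higher and 1 called lower, and its median lies at 0.15.

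Counts are uncertain for Atf5, Ppp1r15a, Fkbp14, Dnajc1, Rpn2 and Spcs3, which overlap exons of an opposite-strand gene, and for Tmx3, which overlaps one on its own strand.

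Chaperones outside the ER are given beside these. Of 24 cytosolic heat shock chaperones, 2 fell, 22 did not pass the test and the median was -0.003. The called share was 8.33% here and 12.5% among the mitochondrial genes below, beside 11.2% of all tested genes. Hspb1, a small heat shock protein, had 46.6 and 35.4 CPM and then 25.3 and 22.6 CPM (log2 fold change -0.77 ± 0.11, edgeR adjusted p = 0.000102), and Cct4, a subunit of the cytosolic chaperonin, fell by 0.21 on the log2 scale. The Cct4 call was lost without sample 1 or 2 of the controls or sample 2 of Trps1 siRNA (adjusted p = 0.0785, 0.151 and 0.138). Of 8 mitochondrial chaperones and proteases, Lonp1, the matrix protease, rose from 302 and 319 CPM to 467 and 464 CPM (log2 fold change 0.59 ± 0.06, edgeR adjusted p = 1.86e-07) and 7 did not pass the test.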

How the data were processed

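RNA sequencing of 2 Negative siRNA and 2 Trps1 siRNA samples was analysed from the raw read counts per gene that the authors deposited. The submitters' processing notes name HISAT2, featureCounts and GRCm38 (mm10), without versions. For strandedness and reads with several matches, the sources used here give nothing. A second table deposited by the authors holds 780 genes with the mean signal per group, log2 fold changes and p-values, whose test the sources used here leave unnamed. Symbols, positions and exon lengths came from GENCODE M21 (GRCm38), matched on Ensembl identifiers.

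Counts were tested with edgeR 4.0.16 (R 4.3.3): TMM, filterByExpr (minimum count 10), then a robust glmQLFit and glmQLFTest for the group, with 2 residual degrees of freedom and Benjamini-Hochberg adjustment over 14701 genes. Standard errors are the log2 fold change over the square root of F. The 95% intervals use the t distribution with the test's total degrees of freedom, which include those gained by sharing variance across genes. The common biological coefficient of variation was 0.0664. Replicates differed by more than sampling noise (chi-square per gene 7.58 and 4.56). Libraries held 17844125 to 25852898 counts, which limits precision for genes with few reads. Of the 35 members, 12 share exon sequence with another annotated gene, 11 of them on the opposite strand, and are uncertain where counting ignored strand.

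The members and gene lists were chosen with earlier results of these data known. Members called at an adjusted p under 0.05 are given with all values, as is the member with the smallest p in each role group without a call. Of each further list, up to 4 called genes with the smallest p are named. Promoter windows came from RefSeq (GRCm38.p6). Alternatives were DESeq2 1.42.0 and limma 3.58.1 voom in place of edgeR, scaling by RLE or by library totals alone, dropping the low-count filter or asking for a mean CPM of 5 or more, non-robust dispersions, a block for the replicate number, and leaving out each sample in turn.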

Additional observations from a re-analysis of the deposited data

How the results depend on the processing

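Over the 12 alternatives, 41 of 48 checks of the 4 called members held. Ern1, Dnajc10, Atf4 and Creb3l2 kept their calls in all 12. Labels share replicate numbers but do not say what a number marks, so the numbers were not taken as pairs. The deviations of samples with the same number had a Pearson r of 0.036 across 14701 genes, which are not independent. Many of these genes have few reads, so a low r cannot exclude pairs. With the replicate number as a block, 2 members were called higher (Ern1 and Syvn1) and 4 lower (P4hb was added), and 13 of the other ER pathway genes were called higher and 12 lower, while 2285 of all genes were called in place of 1652. DESeq2 called 991 of all genes, and 871 were called without sample 2 of Trps1 siRNA. With a sample left out, 1 to 2 members were called higher and 1 to 4 lower, 6 to 14 other ER pathway genes were called higher and 2 to 9 lower, and the members' median log2 fold change lay between -0.029 and -0.018. That median was -0.013 with library totals alone, and -0.034 without the low-count filter. The all-gene medians in these 2 settings were 0.015 and 0.009, beside 0.002 in the main fit. Over all settings the all-gene median lay between -0.004 and 0.015. Members near 0 changed sign without passing the test. The log2 fold change of Derl1 was 0.0016 with library totals alone. With a sample left out, it ranged from -0.052 to 0.025 for Derl1, -0.449 to 0.268 for Derl3, -0.021 to 0.062 for Hyou1, -0.161 to 0.043 for Dnajb9, -0.022 to 0.080 for Sec61b and -0.064 to 0.017 for Os9. The causes were not tested. No splicing of Xbp1, cleavage of ATF6 or phosphorylation was measured.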
